A study of Homo sapiens with 6 samples.

Results

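Homologous recombination, Fanconi and DNA damage checkpoint genes were followed through STAG2 knockdown in a human melanoma line. The 39 genes were taken by their symbols from a table of 57820 genes, and all 39 were among the 15605 genes with enough counts to be tested. RNA-seq had been carried out on M14 cells, a melanoma line expressing a doxycycline-inducible shRNA against STAG2, a subunit of the cohesin complex. The KD group was 3 libraries of cells kept with doxycycline for 5 days, and the WT group was 3 libraries of the same cells kept without it, so every library carries the shRNA construct. Stable lines of the study were kept under hygromycin, blasticidin or puromycin. Because doxycycline was given to the KD cells only, its effect and an effect of STAG2 loss cannot be told apart here. The study describes the samples of a group as biologically independent, so p-values measure the spread between such samples of one line.

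Homologous recombination repairs a broken DNA duplex by copying the intact sister chromatid. The MRE11A-RAD50-NBN complex and its partners resect the broken ends, BRCA1, PALB2 and BRCA2 prepare the strand that searches for the matching sequence, and helicases and nucleases take the joined molecules apart. The Fanconi proteins direct the same machinery to DNA crosslinks through the FANCD2-FANCI pair, while ATM, ATR, CHEK1, CHEK2 and WEE1 hold the cell cycle until repair is done. Many of these genes are transcribed mostly in S and G2 phase, when a sister chromatid is present.

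Totals were 24895998 to 35181733 expected counts per library, and a floor of 3 counts amounted to 0.0869 to 0.112 CPM (counts scaled to a common library size, here after TMM factors). STAG2 itself was at 66.4, 34.7 and 28.8 CPM in WT replicates 1 to 3 and at 15.9, 7.30 and 6.69 CPM in the KD replicates. Its log2 fold change was -2.12 ± 0.43 (SE) with an adjusted p of 0.0342 by edgeR's quasi-likelihood test. That call is lost without either of replicates 2 and 3 of WT or KD, with adjusted p of 0.0652 to 0.168, while the fold change stays between -2.35 and -1.92. WT replicate 1 stood apart, with 5.07% of its counts on mitochondrial genes against 2.12% to 2.94% in the other libraries. It had the lowest total but the most genes above 0, 20646 against 16028 to 17995. The chi-square per gene between WT libraries was 174 and 201 for WT replicate 1, against 52.7 between WT replicates 2 and 3. For KD replicate 1 it was 95.9 and 119, against 41.7 between KD replicates 2 and 3. The 10 melanocyte markers were detected in all 6 libraries, at a summed level of 1936 to 6465 CPM in WT and 1270 to 2677 CPM in KD. Of 10 markers of blood, epithelial, endothelial, stromal and liver cells, 1 was not in the table, 3 were at 0 in every library, and the summed level was 4.91 to 7.70 CPM in WT and 2.87 to 7.49 CPM in KD.

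None of the 39 genes passed an adjusted p of 0.05 in either direction, where 0.839% of all tested genes were called lower and 1.75% higher in KD. At an unadjusted p under 0.05, WEE1, FANCD2, H2AFX, FANCI and CHEK1 were lower in KD and no gene was higher, 5 of 39 beside 6.98% of all tested genes on the lower side and 7.77% on the higher. limma-voom likewise called 0 of the 39, with 5 lower at an unadjusted p under 0.05, where it called 0.878% of all tested genes lower and 1.76% higher. Most of the set lay on the lower side. The log2 fold change was below 0 for 30 of the 39 genes, against 52.0% of all tested genes, and its median was -0.35, against -0.03 over all tested genes. It ran from -1.34 for FANCD2 to 0.30 for MUS81. In 6 genes (BLM, FANCD2, FANCI, CHEK1, WEE1 and H2AFX) every KD library lay below every WT library, beside 10.4% of all tested genes, and in none did every KD library lie above, beside 11.8%.

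The calls depended on whether the replicate numbers, which neither the sample labels nor the RNA-seq methods call pairs, enter the test. With the replicate number as a block, which compares each KD library with the WT library of the same number, 5 of the 39 genes fell, H2AFX, UNG, FANCD2, WEE1 and FANCI, and none rose. The block also raised the share of all tested genes called lower to 4.42% and that called higher to 5.1%. DESeq2 called WEE1, FANCD2 and H2AFX lower, 3 of 39 beside 2.77% of all tested genes, and none higher, beside 3.51%. With no filter on low counts FANCD2, FANCI, WEE1 and H2AFX were called lower, 4 of 39 beside 2.18%, and none higher, beside 2.36%. Without both replicate 1 libraries H2AFX was the 1 gene called, lower, beside 1.85% of tested genes, and none was called higher, beside 2.88%. By pair, 17 of the 39 genes were lower in KD in all 3 same-numbered pairs (22.9% of all tested genes were) and NBN, MUS81 and ATR were higher in all 3 (23.4% were). In these bulk libraries a smaller share of cells in one phase of the cycle and less transcript per cell cannot be told apart. From earlier work, the paper describes no apparent effect of STAG2 knockdown on cell cycle progression in melanoma cells. Cell cycle phase was not measured in these libraries.

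**Figure D1:**
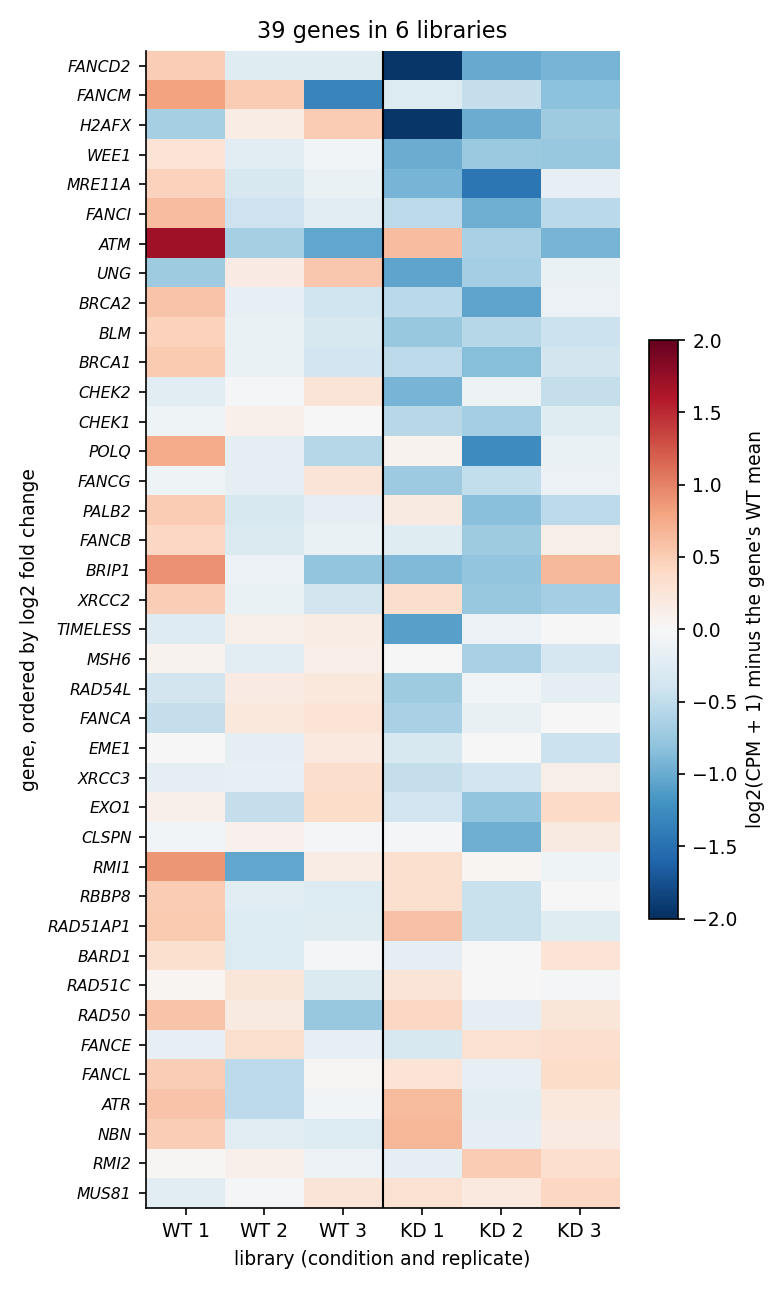
Each row is 1 of the 39 genes and each column 1 library, coloured by log2(CPM + 1) minus the gene's WT mean, with red above and blue below it and rows ordered by log2 fold change. The blue at the top of all 3 KD columns is FANCD2, FANCM, H2AFX and WEE1. Of these, FANCM is also blue in WT replicate 3 and H2AFX in WT replicate 1. The red of the first column shows WT replicate 1 as the highest WT library in 22 of the 39 genes, a count not taken over all tested genes.

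The Fanconi pathway held the gene with the lowest fold change. FANCD2, the protein that is monoubiquitinated at stalled forks and crosslinks, lies on chromosome 3 (GRCh37 chr3:10068054-10143616, plus strand). It was at 39.1, 23.1 and 23.3 CPM in WT replicates 1 to 3 and at 6.47, 13.2 and 14.1 CPM in the KD replicates. The highest KD library lay well below the lowest WT library, and replicate 1 was the extreme library of both groups. Its log2 fold change was -1.34 ± 0.36 (SE), with an adjusted p of 0.0967 by edgeR without the block, 0.0380 with it and 0.0137 by DESeq2. Without both replicate 1 libraries the difference was -0.76 on the log2 scale, with an adjusted p of 0.101. A pseudogene copy, FANCD2P2, was listed with 10.38 expected counts in WT replicate 3 and at 0 in the other libraries.

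FANCI, the partner with which FANCD2 forms a clamp on DNA (GRCh37 chr15:89787176-89860492, plus strand), was at 95, 45.9 and 52.9 CPM in WT and 42.5, 30.6 and 41.8 CPM in KD. The groups did not overlap, but the distance between the lowest WT and the highest KD library was small beside the spread of the WT group. The difference on the log2 scale was -0.75 ± 0.29 (SE), with an adjusted p of 0.259 without the block and 0.0497 with it. Without WT replicate 1, its highest library, the log2 fold change was -0.37 with an adjusted p of 0.417. Its annotated span overlaps that of POLG on the opposite strand, which had a mean of 4067 counts against 1538 for FANCI and a log2 fold change of 0.23.

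The other 6 Fanconi genes did not pass with or without the block. FANCG, part of the core complex that ubiquitinates FANCD2 and FANCI, was at 30.5, 28.4 and 39 CPM in WT and 19.2, 22.7 and 29.7 CPM in KD, with a log2 fold change of -0.45 ± 0.25 (SE) and an adjusted p of 0.462. Its groups overlapped in 1 KD library. FANCA, FANCB, FANCE and FANCL, also of the core complex, had log2 fold changes between -0.39 and 0.13, the highest being that of FANCL, the ubiquitin ligase itself. FANCM, the translocase that recruits the core complex to DNA, was the least abundant of the 39 genes, with a low of 4 expected counts in 1 WT library. Its log2 fold change of -1.25 carried a standard error of 1.06, so a change of either sign lies within the interval of 2 standard errors, -3.36 to 0.87.

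WEE1 and H2AFX were the other genes near the threshold. WEE1, the kinase that holds CDK1 inactive before mitosis (GRCh37 chr11:9595217-9615004, plus strand), had the smallest unadjusted p of the 39, 0.00396. It was at 42.0, 29.5 and 33.3 CPM in WT and 16.8, 20.3 and 20.1 CPM in KD. All 3 KD libraries lay close together, below the whole WT group. KD against WT, the log2 fold change was -0.87 ± 0.23 (SE), with an adjusted p of 0.0956 without the block, 0.0308 with it and 0.0274 by DESeq2. Without both replicate 1 libraries WEE1 had a log2 fold change of -0.63 with an adjusted p of 0.128.

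H2AFX encodes the histone variant H2AX, phosphorylated around a break to mark it, and is a single-exon gene (GRCh37 chr11:118964584-118966175, minus strand). It was at 137, 243 and 312 CPM in WT and 55.9, 109 and 133 CPM in KD. The highest KD library lay just below the lowest WT library, and replicate 1 was the lowest and replicate 3 the highest library of each group. Its log2 fold change was -1.22 ± 0.37 (SE), with an adjusted p of 0.139 without the block. With the block the log2 fold change was -1.23 ± 0.14 (SE) and the adjusted p 0.000507, the smallest of the 39. H2AFX was also called without WT replicate 1 (log2 fold change -1.48, adjusted p 0.0428, where 1.16% of all tested genes were called lower and 2.06% higher) and without both replicate 1 libraries (-1.19, adjusted p 0.0140).

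UNG, the uracil-DNA glycosylase that starts base excision repair of uracil (GRCh37 chr12:109535402-109564530, plus strand), showed the same order of replicates. It was at 48.3, 89.1 and 116 CPM in WT and 37.6, 49.0 and 72.0 CPM in KD. The groups overlapped, yet each KD library was below the WT library of its own number. The fitted log2 fold change was -0.68 ± 0.34 (SE) with an adjusted p of 0.408 without the block, and -0.64 ± 0.16 (SE) with an adjusted p of 0.0372 with it. With 1 library left out and no block it ran from -0.97 (without KD replicate 3) to -0.38 (without WT replicate 3).

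**Figure D2:**
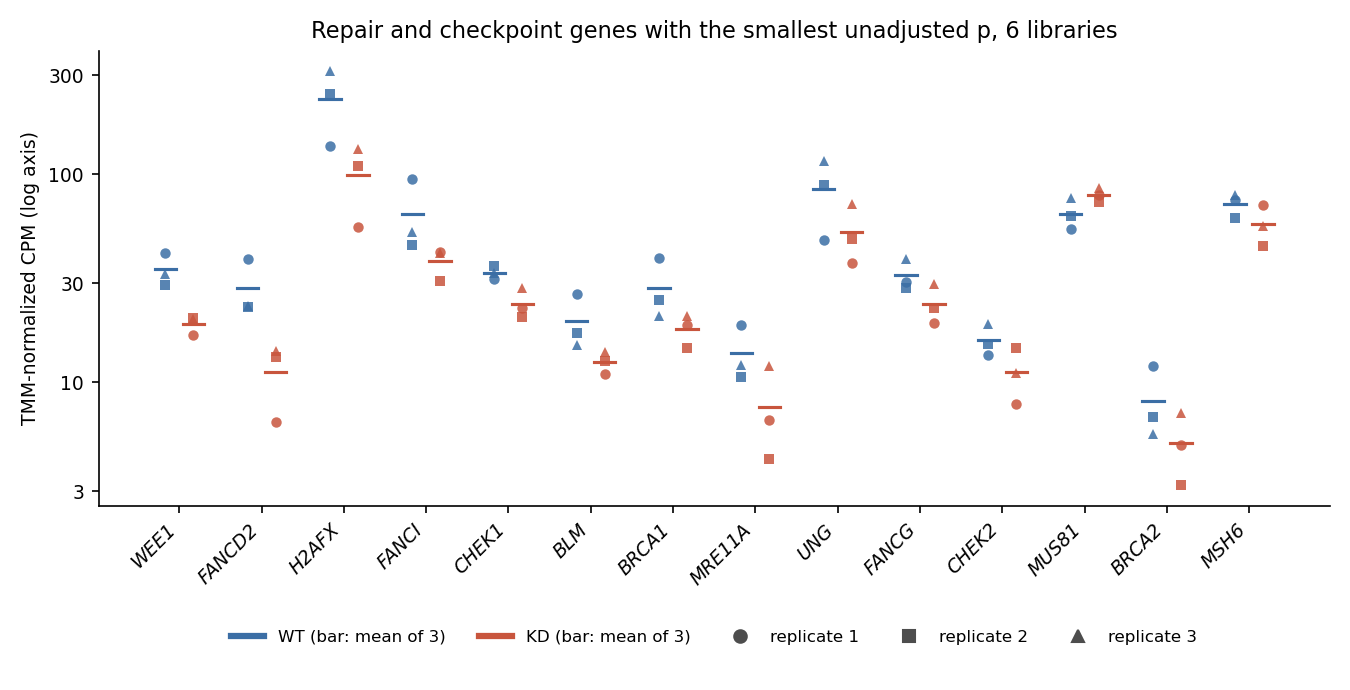
TMM-scaled CPM (log axis) of the 14 genes with the smallest unadjusted p, with WT libraries in blue, KD libraries in red, a bar at each group mean and 1 marker shape per replicate number. WEE1, FANCD2, H2AFX, FANCI, CHEK1 and BLM have no overlap between groups, while in H2AFX and UNG the circles of replicate 1 sit lowest in both groups.

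Promoter windows are shown for 3 of the genes that fell with the block, because E2F sites, CHR elements and CCAAT boxes are the promoter elements best known from genes of S phase and of G2 and mitosis. Each window runs from 250 bases before to 50 bases after a transcript start (RefSeq, GRCh38.p14), is written 5′ to 3′ on the gene's own strand and has in capitals the letters that match a motif on either strand. Distances are those of the first base of a match. FANCD2 (chr3:10026187-10026486, plus strand) has an E2F match, GCGGGAAA, that begins 2 bases before the start and runs across it.
FANCD2: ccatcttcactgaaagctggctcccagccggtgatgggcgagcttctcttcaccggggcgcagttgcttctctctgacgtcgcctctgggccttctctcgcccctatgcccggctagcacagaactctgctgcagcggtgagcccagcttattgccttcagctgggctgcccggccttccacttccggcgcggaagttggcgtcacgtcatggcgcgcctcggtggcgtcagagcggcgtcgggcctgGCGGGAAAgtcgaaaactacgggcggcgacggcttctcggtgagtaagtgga
H2AFX (chr11:119095416-119095715, minus strand) has 4 CCAAT matches, the nearest 67 bases before the start, and 1 CHR match 164 bases before it.
H2AFX: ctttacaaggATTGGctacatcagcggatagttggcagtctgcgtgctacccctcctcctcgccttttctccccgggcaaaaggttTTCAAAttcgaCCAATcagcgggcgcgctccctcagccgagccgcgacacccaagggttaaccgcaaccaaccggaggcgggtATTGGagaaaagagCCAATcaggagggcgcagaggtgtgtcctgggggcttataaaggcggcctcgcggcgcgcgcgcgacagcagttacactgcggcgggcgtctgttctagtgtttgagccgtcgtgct
UNG has another listed start, upstream, whose window is not printed and has 1 CCAAT match and no E2F or CHR match. The window of the downstream start (chr12:109097922-109098221, plus strand) has an E2F match 63 bases before that start, 1 CHR match and 3 CCAAT matches.
UNG: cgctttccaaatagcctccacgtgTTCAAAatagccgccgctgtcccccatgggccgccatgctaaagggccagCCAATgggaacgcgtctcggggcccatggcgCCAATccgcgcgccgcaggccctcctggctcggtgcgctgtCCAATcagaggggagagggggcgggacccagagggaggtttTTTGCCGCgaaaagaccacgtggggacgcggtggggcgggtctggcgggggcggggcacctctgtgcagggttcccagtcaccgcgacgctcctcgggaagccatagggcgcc
The E2F letters searched were TTTGGCGC, TTTCCCGC, TTTGCCGC and TTTCGCGC, the CHR letters TTTGAA and the CCAAT letters CCAAT, and matches of different motifs may share an end base. Windows were matched by symbol for 35 of the 39 genes, and not for WEE1, FANCI, NBN and RMI2. A gene was counted if any of its listed windows held a match, here and among all protein-coding genes. The number of windows per gene was not taken into account. An E2F match was found for 8 of them, XRCC2, EXO1, RMI1, FANCA, FANCD2, CLSPN, MSH6 and UNG, which is 22.9%, against 5.40% of 15843 protein-coding genes. A CHR match was found for 5 of 35 (14.3%) against 15.8%, and a CCAAT match for 20 of 35 (57.1%) against 42.1%. These are matches of letters, and no binding was measured.

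Among the checkpoint and fork protection genes, CHEK1 came closest after WEE1. CHEK1, the kinase that ATR switches on at stalled forks, was at 31.5, 36.2 and 33.5 CPM in WT and 22.7, 20.6 and 28.3 CPM in KD. Its WT libraries were close together and all above the KD group. This amounted to a log2 fold change of -0.50 ± 0.22 (SE) with an adjusted p of 0.330 without the block and 0.143 with it. Its annotated span overlaps that of STT3A on the same strand, which had a mean of 5823 counts against 880 for CHEK1 and a log2 fold change of 0.19, and the part of shared reads in the CHEK1 value was not tested. CHEK2, the kinase downstream of ATM, was at 13.5, 15.3 and 19.2 CPM in WT and 7.89, 14.6 and 11.1 CPM in KD. Those groups overlapped, with a log2 fold change of -0.51 ± 0.31 (SE) and an adjusted p of 0.523.

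ATM and ATR, the kinases at the head of the checkpoint, gave no call. Their values are given in full for their role, chosen after the values were seen. ATM, which responds to double-strand breaks, was at 95.8, 18.0 and 13.6 CPM in WT and 45, 18.2 and 14.7 CPM in KD. Replicate 1 was above the others in both groups, several-fold so in WT. The log2 fold change of -0.71 ± 0.70 (SE) turned to 0.70 without WT replicate 1 and to 0.06 without both replicate 1 libraries. ATR, which responds to single-stranded DNA, was at 22.9, 10.2 and 14.4 CPM in WT and 23.9, 12.7 and 17.5 CPM in KD, with a log2 fold change of 0.19 ± 0.36 (SE). TIMELESS and CLSPN, which hold the replication fork and pass the ATR signal to CHEK1, had log2 fold changes of -0.35 ± 0.28 (SE) and -0.21 ± 0.30 (SE). That of TIMELESS was -0.07 without KD replicate 1, its lowest library, and -0.19 without both replicate 1 libraries.

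No gene of the BRCA1-PALB2-BRCA2 group was called, and their median log2 fold change was -0.42. BRCA1, a ubiquitin ligase that promotes resection, was at 39.6, 24.9 and 20.7 CPM in WT and 18.8, 14.6 and 20.9 CPM in KD. The groups overlapped, since KD replicate 3 was level with the lowest WT library. Against WT, the log2 fold change was -0.65 ± 0.30 (SE) with an adjusted p of 0.351. BRCA2, which acts after resection to start strand invasion, was at 11.9, 6.78 and 5.64 CPM in WT and 5.00, 3.21 and 7.09 CPM in KD, with a log2 fold change of -0.67 ± 0.45 (SE) and an adjusted p of 0.580. For both, WT replicate 1 was the highest library, and without both replicate 1 libraries the log2 fold changes were -0.35 for BRCA1 and -0.26 for BRCA2. PALB2, which bridges those 2 proteins, had a log2 fold change of -0.42 ± 0.42 (SE). BARD1, the obligate partner of BRCA1, had one of 0.02 ± 0.39 (SE) and BRIP1, a helicase that binds BRCA1, one of -0.38 ± 0.66 (SE).

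None of the strand exchange genes was called either. RAD51C, XRCC2 and XRCC3 support strand invasion, and RAD54L and RAD51AP1 stimulate strand exchange. Their log2 fold changes ran from -0.35 for XRCC2 to 0.07 for RAD51C, with a median of -0.25. RAD54L, XRCC2 and XRCC3 were each lower in KD in all 3 same-numbered pairs, and were not called with or without the block.

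End resection was led by MRE11A, the nuclease of the MRE11A-RAD50-NBN complex. MRE11A was at 18.9, 10.6 and 12.1 CPM in WT and 6.59, 4.29 and 11.9 CPM in KD. A pair of KD libraries lay far below the WT group, while KD replicate 3 was level with WT replicate 3. Its log2 fold change was -0.87 ± 0.42 (SE) with an adjusted p of 0.393, and it was -0.48 without both replicate 1 libraries and -1.37 without KD replicate 3. Its partners RAD50 and NBN had log2 fold changes of 0.09 ± 0.45 (SE) and 0.23 ± 0.35 (SE), RBBP8, which licenses the nuclease, had -0.06 ± 0.32 (SE), and the long-range nuclease EXO1 had -0.23 ± 0.37 (SE). The 3 subunits of one complex thus had fold changes of both signs, none called, and the differences between them were not tested.

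The dissolution and resolution genes included the highest fold change of the set. BLM, the helicase that dissolves double Holliday junctions, was at 26.5, 17.3 and 15.1 CPM in WT and 10.9, 12.6 and 13.9 CPM in KD. Its groups did not overlap, with a log2 fold change of -0.65 ± 0.29 (SE) and an adjusted p of 0.342, and the log2 fold change was -0.28 without both replicate 1 libraries. RMI1 and RMI2, which act with BLM, had log2 fold changes of -0.13 ± 0.73 (SE) and 0.26 ± 0.24 (SE). MUS81, the catalytic subunit of a structure-selective nuclease, was at 54.3, 63.1 and 76.6 CPM in WT and 79.3, 73.3 and 85.6 CPM in KD. The groups overlapped, and each KD library was above the WT library of its number. The log2 fold change of 0.30 ± 0.20 (SE) had an adjusted p of 0.573, and its partner EME1 had one of -0.26 ± 0.28 (SE). MUS81 lies opposite CFL1, which had a mean of 67339 counts against 2210, and EME1 opposite LRRC59, with 9063 against 413. Exons of RAD54L (opposite LRRC41, 5692 counts against 1505), XRCC3, CHEK2, FANCA, FANCL, MSH6 and NBN also overlap a gene on the opposite strand. The strand setting of the counting is not given in the sources used here, and the part of shared reads was not tested.

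Of the remaining repair genes, MSH6, which recognises mismatches, was at 75.6, 61.6 and 79.1 CPM in WT and 71.1, 45.4 and 56.4 CPM in KD. The fitted log2 fold change was -0.32 ± 0.22 (SE) with an adjusted p of 0.586, and the groups overlapped. POLQ, the polymerase of microhomology-mediated end joining, had a log2 fold change of -0.48 ± 0.48 (SE).

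**Figure D3:**
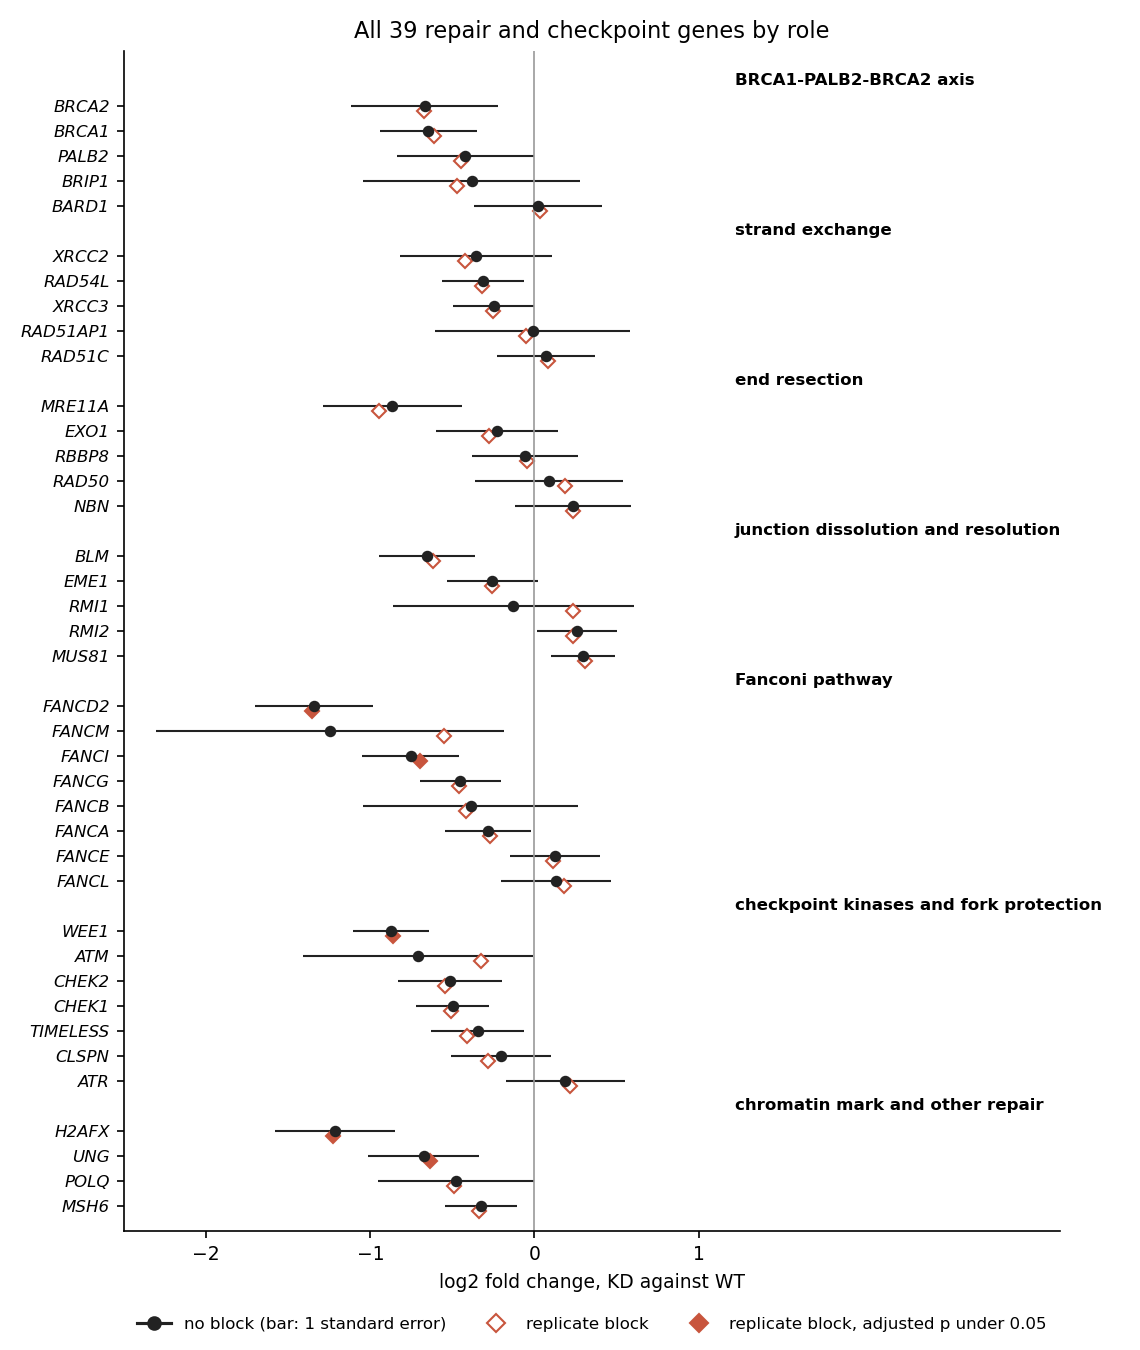
Log2 fold change, KD against WT, of the 39 genes by role, as black points with a bar of 1 standard error for the test without the block and as diamonds for the fit with it, filled where the adjusted p was under 0.05. The filled diamonds are FANCD2, FANCI, WEE1, H2AFX and UNG, and each lies within 1 standard error of the black point of its gene.

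The genes differed widely in level. Per kilobase of the canonical transcript, H2AFX was the highest in both groups, with means of 145 CPM per kilobase in WT and 62.4 in KD. UNG (41.3 in WT, 25.8 in KD) and MUS81 (27.4 in WT, 33.6 in KD) came next, with UNG ahead in WT and MUS81 in KD, an order that was not tested. FANCM was the lowest in both groups, with means of 0.336 CPM per kilobase in WT and 0.142 in KD, below BRCA2 (0.679 and 0.427) and BRIP1 (0.761 and 0.582). The standard errors of the log2 fold change were 1.06 for FANCM, 0.66 for BRIP1 and 0.45 for BRCA2, against 0.23 for WEE1.

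Replicate 1 differed from the other replicates by gene length within the set, as a description. The difference in log2(CPM + 1) between replicate 1 and the mean of replicates 2 and 3 had a Spearman correlation with transcript length of 0.56 in WT and 0.32 in KD over the 39 genes, which share the same libraries. Over 14940 tested genes with a length it was 0.20 in WT and 0.04 in KD. ATM, with the longest transcript at 12915 bases, was the furthest above in both groups, and H2AFX and UNG, with short transcripts, were below in both. FANCL and RAD51AP1, also short at 1658 and 2112 bases, were above in both. In WT, replicate 1 lay above the mean of the others for 27 of the 39 genes, and in KD for 20. Among all tested genes with a length it did so for 52.1% in WT and 48.8% in KD. Replicate 1 was higher than the others in both groups for 18 of the 39 genes and lower in both for 10. Its part in the fold changes was not tested beyond leaving both replicate 1 libraries out, which moved the median of the 39 from -0.35 to -0.25. With 1 library left out that median ran from -0.47 (without KD replicate 3) to -0.18 (without KD replicate 2).

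**Figure D4:**
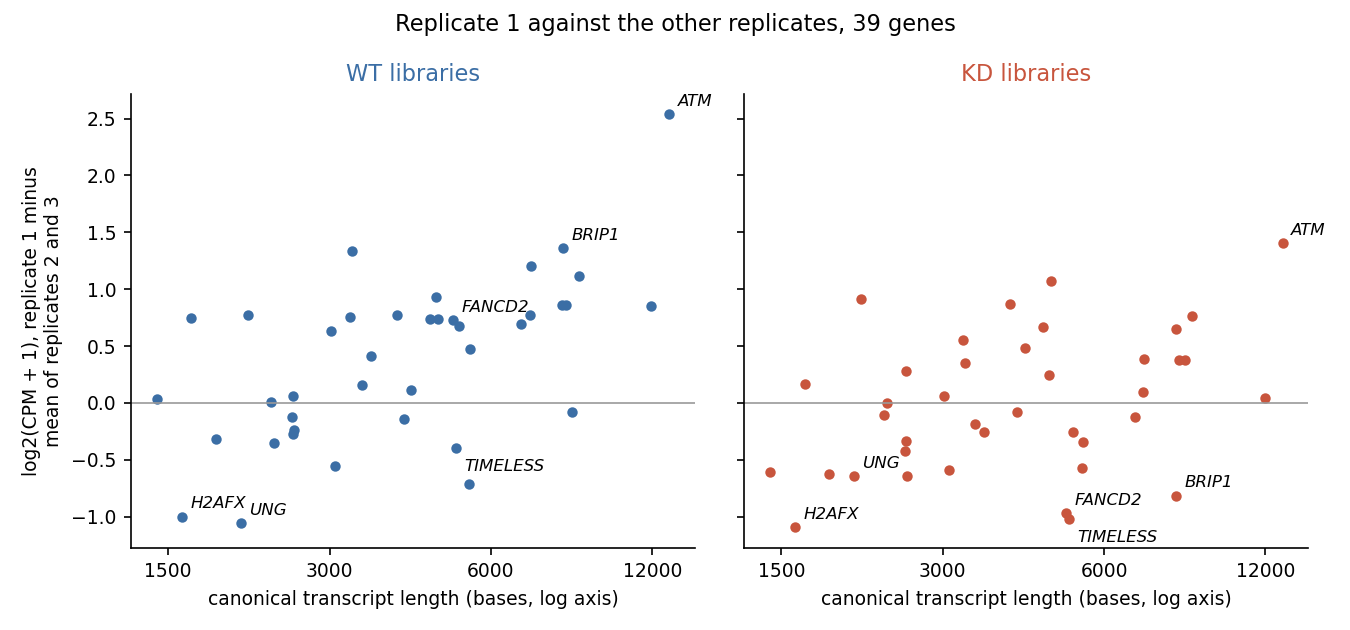
For each of the 39 genes, log2(CPM + 1) in replicate 1 minus the mean of replicates 2 and 3, against the length of the canonical transcript in bases (log axis), for WT (left) and KD (right). ATM lies highest in both panels, H2AFX lies below 0 in both, and FANCD2 is above 0 in WT and below it in KD.

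Lists of related genes, chosen by function, place the set. Among 60 other recombination, Fanconi and checkpoint genes, 0 were called, 6 were lower and 1 higher at an unadjusted p under 0.05, and the median log2 fold change was -0.07. limma-voom and DESeq2 also called 0 of the 60, and the block called STRA13 and RIF1 lower. USP1, which removes ubiquitin from FANCD2, was at 43.5 ± 4.14 CPM (SD, n = 3) in WT and 27.4 ± 5.81 in KD, with an adjusted p of 0.190 by edgeR. Over all tested genes the median was -0.03, near that of the 60, while that of the 39 was -0.35. In 7 of the 60 (11.7%) every KD library lay below every WT library, beside 10.4% of all tested genes. In 2 every KD library lay above, beside 11.8%. No test was made of the difference between the lists.

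Of the other repair routes, PRKDC, the kinase of non-homologous end joining, was the 1 gene called. It fell from 287 ± 70.2 CPM (SD, n = 3) in WT to 124 ± 9.48 in KD, with a log2 fold change of -1.21 ± 0.22 (SE) and an adjusted p of 0.0209 by edgeR's quasi-likelihood test. That call is lost without WT replicate 2 or any 1 of the KD replicates, although the lowest WT library, at 237 CPM, lay above the highest KD library, at 133 CPM. The other 10 tested end joining genes were not called, and the list's median was -0.26. None of 22 mismatch and base excision genes (median -0.08, and -0.20 to -0.04 with 1 library left out) or 18 nucleotide excision genes (median -0.17, which turned to 0.04 without WT replicate 1) was called, with 1 and 0 lower at an unadjusted p under 0.05, and of both lists the block called LIG1 alone. DESeq2 called none of these 40 genes.

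The cell cycle lists held more calls. All 53 G2 and mitosis genes had a log2 fold change below 0, with a median of -1.11, and 18 of them fell, 47 with the block. By DESeq2 the count was 39. It was 25 without both replicate 1 libraries and 2 to 8 without any 1 of WT replicates 2 and 3 and the KD replicates. TOP2A, the topoisomerase that untangles chromosomes for mitosis, fell from 174 ± 76.9 CPM (SD, n = 3) to 37.3 ± 6.68, a log2 fold change of -2.22 ± 0.31 (SE) with an adjusted p of 0.00582 by edgeR. CENPA, the centromeric histone, fell by 1.99 and HMGB2, a chromatin protein, by 1.66 on the log2 scale. Of 37 S phase genes 33 were below 0, with a median of -0.59, and 3 fell, the replication inhibitor GMNN (-1.32), the chromatin remodeller HELLS (-1.72) and CDCA7 (-1.27). The S phase count was 8 with the block, 4 without both replicate 1 libraries and 0 without any 1 of WT replicates 2 and 3 and the KD replicates. The median of the 39 repair and checkpoint genes lay between that of all tested genes and that of the S phase list. Whether their values follow those of the cell cycle lists was not tested.

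**Figure D5:**
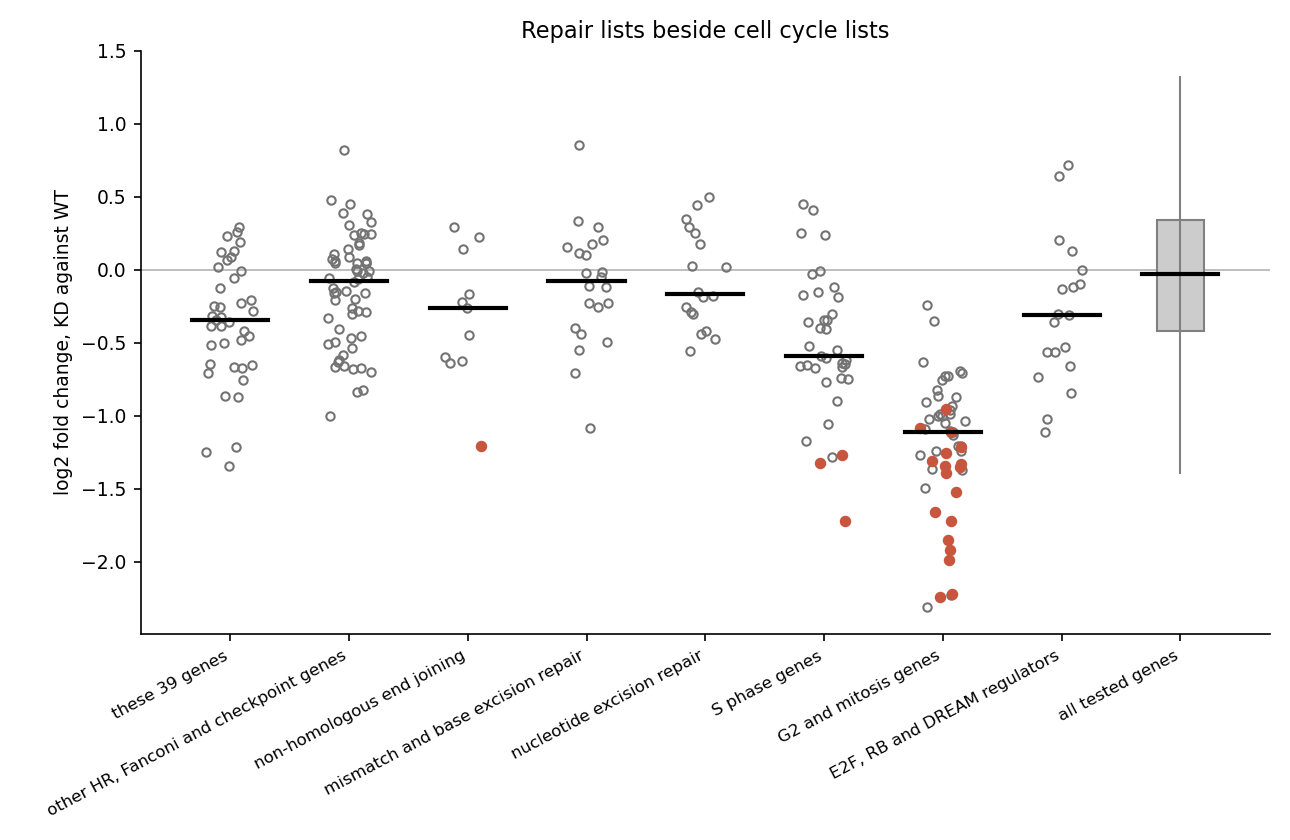
Log2 fold change, KD against WT, of each gene in the 39-gene set and 7 related lists, with filled red points for an adjusted p under 0.05, a black bar at each median, and for all tested genes a box from the 25th to the 75th and whiskers from the 5th to the 95th percentile. The 39 genes have no filled point and a median of -0.35, beside -0.59 for S phase genes and -1.11 for G2 and mitosis genes.

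Among regulators, none of 19 E2F, RB and DREAM genes was called by edgeR without the block, with 4 lower and 2 higher at an unadjusted p under 0.05, and 1 was called by DESeq2. Without both replicate 1 libraries 2 were called lower, and without WT replicate 1 the count was 1. The block called MYBL2, E2F2, FOXM1 and TFDP1 lower, and the list's median was -0.31, or -0.16 without both replicate 1 libraries. Of 24 listed p53 targets, 21 were tested, and 3 rose while none was called lower. CDKN1A, the CDK inhibitor p21, rose from 55.0 ± 27.6 CPM (SD, n = 3) to 261 ± 17.5, a log2 fold change of 2.25 ± 0.37 (SE) with an adjusted p of 0.0139 by edgeR. GADD45A and PLK3, stress-response genes of the G2 checkpoint, rose by 3.09 and 1.86 on the log2 scale. The median of the p53 targets was 0.06 and its sign was not stable, with -0.06 to 0.09 when 1 library was left out, -0.07 with no filter on low counts, and a value below 0 without both replicate 1 libraries. That median was 0.11 with the block, 0.14 with limma-voom and at most 0.33 under any alternative. In that list 6 genes rose with the block and 5 without WT replicate 1. At an unadjusted p under 0.05, 2 of the targets were lower and 5 higher, and DESeq2 called 0 lower and 3 higher. Of the 10 melanocyte genes, S100B alone was called, lower in KD with a log2 fold change of -1.35 ± 0.21 (SE), and 7 were called lower and 1 higher with the block. The S100B call is lost without KD replicate 2 or KD replicate 3.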

How the data were processed

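Polyadenylated RNA of the 6 libraries was sequenced from a directional kit. Expected counts were deposited, which the authors obtained by mapping to hg19 with STAR and quantifying with RSEM, a tool that divides reads matching several genes between them. The counts were neither scaled nor filtered, and the strand setting is not given in the sources used here. Of 57820 genes, 33470 were at 0 in every library.

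Counts were rounded, filtered with filterByExpr, scaled by TMM and tested in edgeR 4.0.16 (R 4.3.3) with the quasi-likelihood test, KD against WT, taking the 15605 genes together for the Benjamini-Hochberg adjustment and 0.05 as the threshold. Alternatives used DESeq2 1.42.0, limma 3.58.1 (voom), other scalings and filters, a replicate block and fewer libraries. A CPM value is scaled by TMM. The standard errors cover these libraries only, and the smallest two-sided exact permutation p for 3 against 3 is 0.1. Same-numbered WT and KD libraries deviated together from their group means, with correlations of 0.53, 0.36 and 0.30 over 12743 genes. Replicates 2 and 3 also did so across numbers, with 0.21 (WT 2, KD 3) and 0.17 (WT 3, KD 2). Correlations of replicate 1 with other numbers were -0.42 to -0.34. Deviations within a group of 3 sum to 0, so these correlations are not independent of one another. Neither the sample labels nor the RNA-seq methods state a pairing. The numbers were assumed to pair the libraries for the block and the counts by pair, and the main test did not use them. Positions and transcript lengths come from GENCODE 44 lifted to GRCh37. Scripts were tested on simulated data.

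The genes and lists were chosen with earlier results of these data known. Values in every library were given for the 14 genes with the smallest unadjusted p, and genes of other lists were named by adjusted p, up to 6 a list, or by smallest p, up to 2, where none passed. Some genes are not reported here.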

Additional observations from a re-analysis of the deposited data

How the results depend on the processing

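Direction and call were recomputed under 15 alternatives. The count of genes called among all tested, 404, was 979 with DESeq2, 1103 with no filter on low counts, 1486 with the replicate block and 757 without both replicate 1 libraries, and ran from 121 (without KD replicate 3) to 531 (without WT replicate 1). It was 177, 165, 241 and 146 without WT replicate 2, WT replicate 3, KD replicate 1 and KD replicate 2. The count of the 39 genes called lower, 0, was 3 with DESeq2, 4 with no filter, 5 with the block, 1 without both replicate 1 libraries and 0 to 1 with 1 library left out, and the count called higher was 0 throughout. The block changed no other call among the 39 genes. Their median, -0.35, stayed below 0 under the 15 alternatives but was -0.18 without KD replicate 2. STAG2 had a log2 fold change of -2.12 with library size scaling (adjusted p 0.0591) and -2.63 to -1.68 with 1 library left out.

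The sign was kept under all alternatives that gave a value for 24 of the 39 genes (FANCM is left out by the filter of 10 counts in every library) and turned for 15, none of them called in any alternative. The log2 fold change of BARD1 was -0.017 with upper-quartile scaling. Without both replicate 1 libraries it was 0.64 for BRIP1, -0.020 for RAD51C, 0.050 for RBBP8, 0.46 for RMI1 and 0.064 for ATM. RMI1 was also at 0.44 with limma-voom and 0.23 with the block. With 1 library left out, log2 fold changes ran from -0.15 to 0.22 for BARD1, -1.27 to 0.32 for BRIP1, -0.076 to 0.21 for RAD51C, -0.52 to 0.39 for RAD51AP1, -0.25 to 0.44 for RAD50, -0.039 to 0.54 for NBN, -0.27 to 0.25 for RBBP8, -0.67 to 0.012 for EXO1, -0.60 to 0.62 for RMI1, -0.0050 to 0.32 for FANCE, -0.11 to 0.43 for FANCL, -1.37 to 0.70 for ATM, -0.066 to 0.54 for ATR, -0.47 to 0.075 for CLSPN and -0.76 to 0.019 for POLQ. The causes were not tested.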
